A study of Saccharomyces cerevisiae with 142 samples.

Results

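Ribosome assembly factors are the nucleolar and nuclear proteins that fold, cut, modify and export the precursors of the ribosomal subunits, and leave before the subunits begin to translate. The 59 genes described here were chosen by name from this pathway. The rule uses no measured value, but earlier results of these data were known when it was written. They were all on the arrays, each as 1 probe set, among the 5449 genes measured. They comprise 4 box C/D small nucleolar ribonucleoprotein or nucleolin-like genes, 3 box H/ACA genes, 6 genes of the UtpA complex, 4 of the UtpB complex, 13 other small-subunit factors and 29 large-subunit factors.

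Budding yeast makes its ribosomal RNA in the nucleolus, where the small-subunit processome, with UtpA and UtpB as early binding modules, forms on the growing transcript. Box C/D and box H/ACA particles guide the methylation and pseudouridylation of that RNA. GTPases, DEAD-box helicases and scaffold proteins then mature the large subunit. Transcripts of these factors form a regulon known to fall in stress and to rise with nutrients and growth.

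The arrays, Affymetrix expression arrays of budding yeast RNA, followed synchronised cultures that entered a cell-cycle arrest or cycled freely. There were 142 arrays in 9 time courses and 6 groups, and each array was a single time point. The cdc14-3 group (1 course, 21 arrays, 0 to 240 min) and the cdc15-2 group (1 course, 16 arrays, 0 to 180 min) were BF264-15D MATa bar1 cells stopped in G1 by alpha factor at a growth temperature of 25 °C and then let go into YEP with 2% dextrose at 37 °C. Both alleles are temperature-sensitive and stop cells late in mitosis, before mitotic exit. The cdc20 group (2 courses, 32 arrays, 20 to 360 min) was BF264-15DU MATa bar1 with cdc20::LEU2, Pgall-CDC20::ADE2 and CFP-TUB1::URA3, a strain built to stop in metaphase when CDC20 is turned off. The cyclin mutant group (2 courses, 30 arrays, 30 to 262 min) was BF264-15DU MATa with GAL1-CLB1:LEU2 and all B-type cyclin genes disrupted: the S-phase pair as clb6::APE1 and clb5::ARG4, and the mitotic ones as clb4::HIS2, clb3::TRP1, clb2::LEU2 and clb1::URA3. Its label lists no bar1, the mutation that all the other groups carry. The wild type 37 C group (1 course, 15 arrays, 15 to 225 min) was BF264-15DU bar1 mating type a, grown at 25 °C and put into prewarmed YEPD at 37 °C after elutriation, which collects small G1 daughter cells by size. The wild type 30 C group (2 courses, 28 arrays, 30 to 262 min) was BF264-15DU MATa bar1. Like the cdc20 and cyclin mutant groups, it was elutriated and kept at 30 °C in YEPDextrose with 1 M sorbitol. Only the cdc14-3 and cdc15-2 arrays were new to the series, and the others were re-analysed from earlier studies.

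Values are log2 of the deposited intensity, and array medians ran from 1056 to 1362 on the linear scale. CLB2, CLB3 and CLB4 were at medians of 7.03 and 7.05, 6.77 and 6.68, and 7.48 and 7.66 in the cyclin mutant courses, against 10.54 and 10.38, 10.22 and 10.13, and 9.65 and 9.67 in wild type 30 C. CLB1 and CLB5 were not lower there, and whether their probes lie in the disrupted parts is not given. For CLB1 the label also lists GAL1-CLB1:LEU2, whose part in the signal was not tested. CLB1 and CLB5 thus check nothing. CDC20 was at medians of 8.95 and 8.97 in the cdc20 courses (8.63 to 9.72), against 9.32 and 9.51 in wild type 30 C (7.44 to 10.55), so these arrays do not show it off. STE2, the alpha factor receptor of MATa cells, was between 11.3 and 14.26 in all groups, and STE3, its MATalpha counterpart, between 6.11 and 8.15. Other markers were less clear: the MATa genes STE6, MFA1 and MFA2 had medians of 10.16, 10.97 and 10.52 in the cyclin mutant, against 11.93 to 14.08 in the other groups, and SAG1, a MATalpha gene, reached 11.02 in cdc14-3. BAR1 was between 9.09 and 10.7 in the cyclin mutant and between 5.69 and 7.74 in the other 5 groups. The control probe sets for the 3′ end minus the 5′ end of TDH1, a measure of RNA length on the array, differed by 0.508 to 1.342 in cdc14-3, 0.656 to 3.044 in cdc15-2, 0.789 to 3.697 in cdc20, 1.424 to 2.29 in the cyclin mutant, 0.976 to 1.845 in wild type 37 C and 1.623 to 2.511 in wild type 30 C. Its part in the results was not tested. These are bulk cultures, so fewer cells of a kind and less RNA per cell cannot be told apart.

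Assembly factor transcripts followed a common course. Their mean was highest at 54 to 70 min in all courses other than wild type 37 C, where it was highest at 210 min. It was below its highest value on the earliest array of every course, by 0.296 in cdc20 replicate 1, which began at 40 min, and by 0.727 to 2.691 in the others. In cdc14-3 the mean of the 59 genes stood at 10.451 at 0 min, 9.202 at 12 min, 11.531 at 60 min and 10.942 at 240 min. In cdc15-2 it stood at 10.731 at 0 min, 9.33 at 12 min, 11.497 at 60 min and 11.073 at 180 min. The 37 °C mutants thus shared the time of the lowest and of the highest array.

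In cdc20 the mean was 12.494 at 60 min and 10.991 at 300 min in the course labelled replicate 1, and 12.416 at 60 min and 10.425 at 360 min in replicate 2. In the cyclin mutant it was 12.362 at 54 min and 11.258 at 262 min in replicate 1, and 12.342 at 62 min and 11.395 at 254 min in replicate 2. Both arrested groups at 30 °C ended far under their own peaks.

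In wild type 37 C the mean was 8.526 at 15 min and 11.178 at 225 min. In wild type 30 C replicate 1 it stood at 10.201 at 30 min, 12.278 at 62 min and 11.81 at 254 min, and in replicate 2 at 10.414 at 38 min, 12.24 at 70 min and 11.805 at 262 min. The cycling cells at 30 °C ended closer to their peak than the arrested ones, of which the cdc20 courses ran longer. The mean of the 59 genes stood between percentiles 17.0 and 88.3 of all genes on an array.

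**Figure D1:**
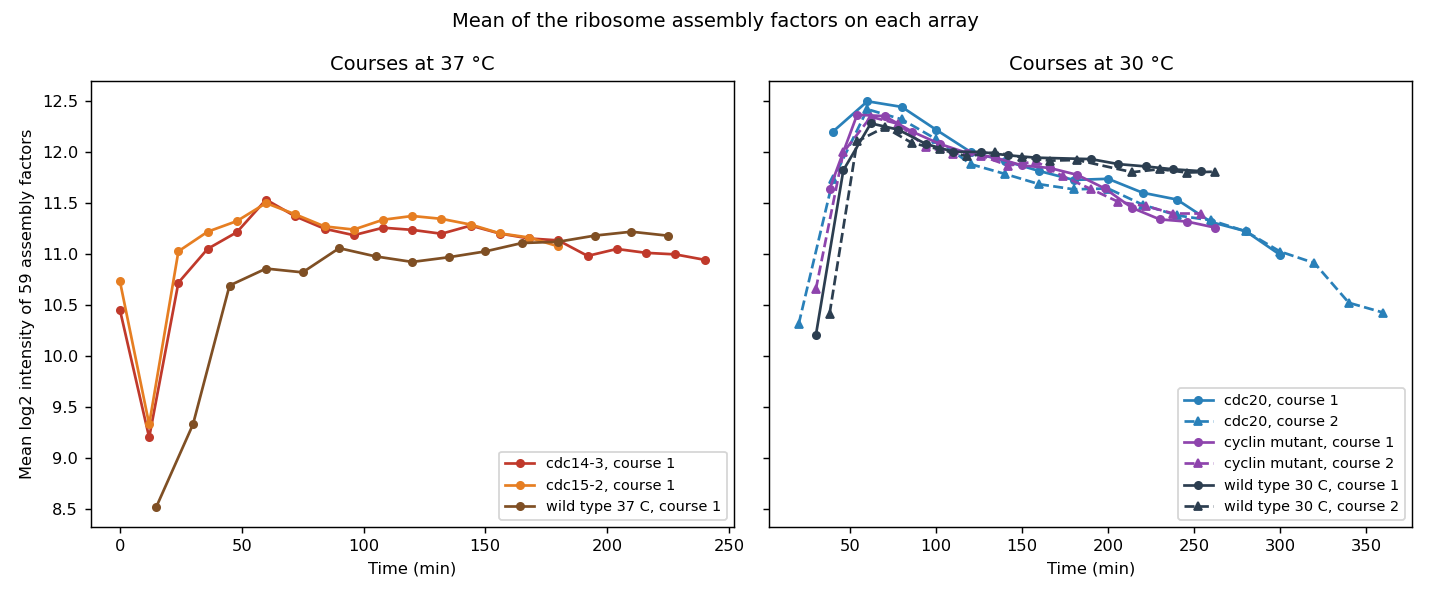
Mean log2 intensity of the 59 assembly factors (y axis) against time in minutes (x axis), 1 point per array, with the 37 °C courses and the 30 °C courses in separate panels. The cdc14-3 and cdc15-2 courses dip at 12 min to 9.202 and 9.33, wild type 37 C starts at 8.526 and ends at 11.178, and the cdc20 courses end at 10.991 and 10.425.

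Each gene was tested for change over time with a spline curve in limma over all 5449 genes. A gene was called when its Benjamini-Hochberg adjusted p was under 0.05 and its fitted curve spanned at least 1 on the log2 scale. All 59 assembly factors changed in cdc20, where 56.4% of all genes were called, and all 59 in wild type 37 C, where 32.6% were. In wild type 30 C 56 of 59 changed (36% of all genes), in the cyclin mutant 52 (37.5%), in cdc14-3 49 (22.8%) and in cdc15-2 17 (19%). At an unadjusted p under 0.05 in limma there were only 26 of 59 in cdc15-2, against 74% of all genes. By the unadjusted p there were 57 in cdc14-3 (77.4% of all genes) and 59 in each other group (78.6% to 96.1%). The median fitted range of the 59 genes, with that of all genes after it, was 1.61 and 0.58 in cdc14-3, 1.38 and 0.55 in cdc15-2, 2.07 and 1.11 in cdc20, 1.33 and 0.81 in the cyclin mutant, 2.80 and 0.73 in wild type 37 C, and 2.11 and 0.74 in wild type 30 C. These p-values measure scatter of arrays about a curve within a culture, not spread between cultures. The calls at 37 °C after alpha factor rested on the early arrays. Without the 12 min array 31 genes were called in cdc14-3 and 8 in cdc15-2, and without all arrays before 30 min none was in either.

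The box C/D genes ranged from narrow to wide movements. NOP58, a scaffold protein of the box C/D particle, spanned 1.03 in cdc20 (lowest 12.62, median 13.38, highest 13.76; adjusted p 1.08e-10), the narrowest of the 59 there. It spanned 0.60 in cdc15-2 (adjusted p 0.398) and 0.71 in the cyclin mutant, also the narrowest in those groups, and was called in neither. NOP56, its partner in the particle, had the narrowest range in cdc14-3 at 0.77 (lowest 10.96, median 12.21, highest 12.41). In wild type 37 C it spanned 2.03, and its highest array was at 210 min.

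NOP1, the fibrillarin methyltransferase of the same particle, had its highest array later than the common mean in cdc20. It was lowest there at 20 min, at 12.03, had a median of 13.65 and was highest at 160 min, at 13.83, while the mean of the 59 genes was highest at 60 min. The highest value was 1 array of replicate 2. NOP1 had a range of 1.44 (adjusted p 2.49e-11), but from 100 min on of 0.41, the narrowest of the 59, so a later peak is not shown. NSR1, the yeast nucleolin, had the widest range of the 59 in wild type 37 C at 4.17 (lowest 8.28 at 15 min, median 12.10, highest 12.19; adjusted p 3.18e-08). In the same group all 4 genes of the class were called (32.6% of all genes), as in cdc20 (56.4%) and wild type 30 C (36%). In cdc14-3 2 were called (22.8%), in cdc15-2 none (19%) and in the cyclin mutant 2 (37.5%).

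Among the box H/ACA genes, CBF5, the pseudouridine synthase, spanned 1.36 in cdc20 (12.22, 13.37 and 13.76 as lowest, median and highest; adjusted p 1.42e-12) and 1.10 in the cyclin mutant. GAR1, which binds Cbf5 in the particle, spanned 1.21 in cdc20 and 0.92 in the cyclin mutant, where it fell short of the threshold. The median range of the 3 genes was lowest of the 6 classes in cdc14-3 (0.91), cdc15-2 (0.84), cdc20 (1.36), the cyclin mutant (0.92), wild type 37 C (2.10) and wild type 30 C (1.16). For comparison the 29 large-subunit genes had medians of 1.61, 1.40, 2.19, 1.35, 2.73 and 2.17 in the same order of groups. Differences between classes were not tested.

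Small-subunit factors were counted by complex. All 6 UtpA and all 4 UtpB genes changed in cdc14-3, cdc20 and wild type 37 C, 5 and 4 in wild type 30 C, and 4 each in the cyclin mutant. In cdc15-2 3 UtpA genes and 1 UtpB gene changed. Of the 13 other small-subunit factors 11 changed in cdc14-3, 5 in cdc15-2, 13 in cdc20, the cyclin mutant and wild type 37 C, and 12 in wild type 30 C. Of all genes 22.8% were called in cdc14-3, 19% in cdc15-2, 56.4% in cdc20, 37.5% in the cyclin mutant, 32.6% in wild type 37 C and 36% in wild type 30 C. UTP10, a large UtpA subunit, spanned 1.68 in cdc20, with 10.35, 11.86 and 12.40 as lowest, median and highest. IMP4, which helps the U3 RNA pair with the pre-ribosomal RNA, spanned 2.62 in cdc20 (9.66, 11.49 and 12.40; adjusted p 3.52e-13). Its lowest array there was at 360 min, the end of the longer course. RRP5, required for both subunits, spanned 3.25 in wild type 37 C (9.02, 11.62 and 12.00). DBP8, a DEAD-box protein of the small subunit, had the widest range in cdc14-3 at 2.23 (7.65, 9.68 and 10.47; adjusted p 0.000257).

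UTP22, a processome protein that also occurs in a complex with the ribosomal protein gene activator Ifh1, changed in cdc20 (1.22), the cyclin mutant (1.05) and wild type 37 C. It had the narrowest range of the 59 in wild type 37 C at 1.89 (8.77, 10.50 and 10.77) and in wild type 30 C at 0.81 (11.07, 11.84 and 12.21). In wild type 30 C its adjusted p was 5.58e-05, but the range kept it from being called.

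Among large-subunit factors, RPF2, which brings the 5S RNA particle into the precursor, had the widest range in wild type 30 C at 3.16 (lowest 9.47 at 30 min, median 12.25, highest 12.69 at 70 min; adjusted p 5.06e-09). NIP7, an early large-subunit factor, spanned 4.10 in wild type 37 C (8.68, 12.70 and 12.83) and 2.34 in wild type 30 C (10.75, 12.77 and 13.18). NOG1, a GTPase of the large-subunit precursor, spanned 3.89 in wild type 37 C (7.76, 11.40 and 11.57) and 2.22 in wild type 30 C (10.56, 12.44 and 12.96). These genes were lowest on the earliest arrays of each wild type group.

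NOP16, a large-subunit factor, had the widest range in cdc20 at 2.87 (lowest 8.87 at 360 min, median 10.92, highest 12.40 at 80 min; adjusted p 4.3e-14). NOP7, part of the complex with Erb1 and Ytm1, had the widest in the cyclin mutant at 2.35 (9.56, 12.00 and 12.53; adjusted p 6.41e-08). RRP1, needed to process the large-subunit RNA, had the widest in cdc15-2 at 1.96 (8.99, 11.46 and 11.72; adjusted p 0.0205). All 29 large-subunit genes changed in cdc20 (56.4% of all genes), wild type 37 C (32.6%) and wild type 30 C (36%). In the cyclin mutant 28 changed (37.5%), in cdc14-3 25 (22.8%) and in cdc15-2 8 (19%).

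In cdc20, NOP2, a methyltransferase of the large-subunit RNA, spanned 1.5, with 10.43, 11.91 and 12.66 as lowest, median and highest. NMD3, the export adaptor of the large subunit, spanned 1.72 (11.07, 12.24 and 12.89), and RLP24, which holds the place of a ribosomal protein, 2.17 (10.03, 12.08 and 13.08). ERB1 spanned 1.40 (11.42, 12.25 and 12.77) and DRS1, a DEAD-box helicase, 2.24 (9.59, 10.86 and 12.22). NMD3 and DRS1 were lowest late in the courses, and the other 3 genes at 20 min.

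**Figure D2:**
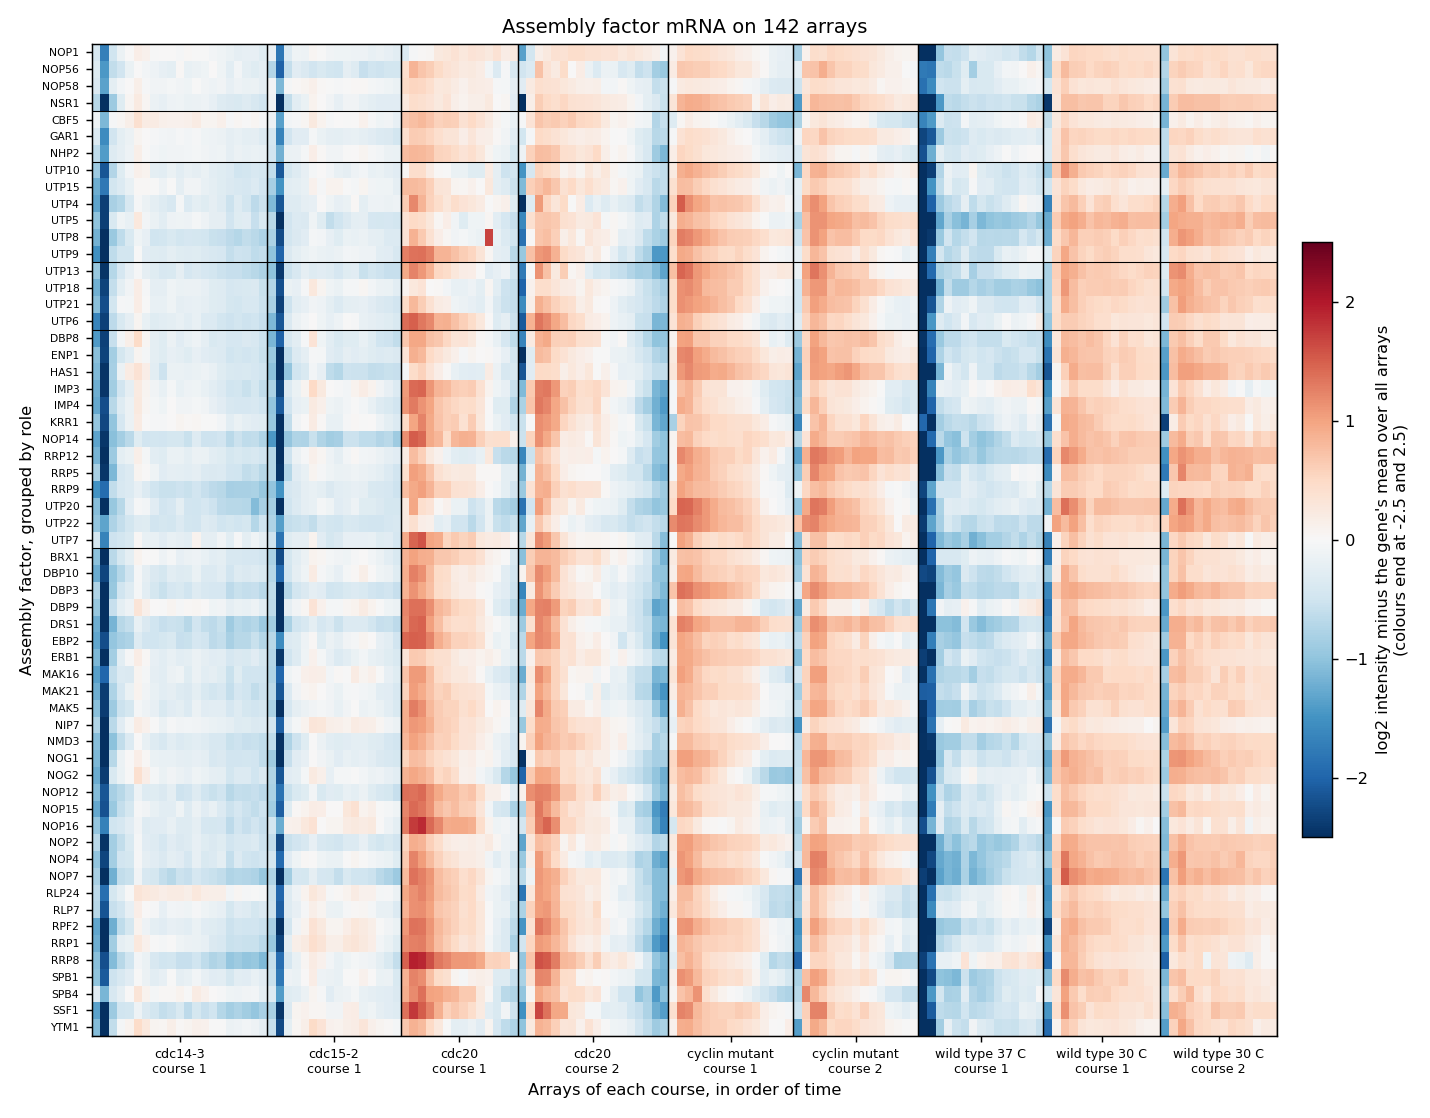
Log2 intensity of each of the 59 genes minus its own mean over all arrays (colour, ending at -2.5 and 2.5), with genes grouped by role down the page and the 142 arrays of the 9 courses in order of time across it. Nearly every gene is low on the earliest arrays of most courses, and most are low again late in the cdc20 courses.

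Other genes of ribosome synthesis and growth were measured from lists named for this report. Of 85 other assembly factors, 69 were called in cdc14-3 (22.8% of all genes), 35 in cdc15-2 (19%) and 81 in cdc20 (56.4%). In the cyclin mutant 73 were called (37.5%), in wild type 37 C 76 (32.6%) and in wild type 30 C 78 (36%). The widest of the 85 were DHR2 in cdc14-3 (2.59) and wild type 30 C (3.64), DBP2 in cdc15-2 (2.10) and the cyclin mutant (2.62), RRP36 in cdc20 (3.67) and PUF6 in wild type 37 C (3.79). Among the 15 RNA polymerase I genes 10, 5, 13, 7, 10 and 10 were called in the same order of groups. Of those, RPA135 had the widest range in cdc14-3 (1.78) and wild type 30 C (2.49), RRN11 in cdc20 (2.48), RPA190 in the cyclin mutant (1.55) and RPA49 in wild type 37 C (4.0). In cdc15-2 RPA49 spanned 1.59 (adjusted p 0.0727). RNA polymerase III counts were 11, 9, 11, 11, 12 and 12 of 12. RPC25 had the widest range in cdc14-3 (1.95) and wild type 37 C (3.11), and RPC34 in cdc15-2 (1.96), cdc20 (2.30), the cyclin mutant (2.10) and wild type 30 C (3.01).

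The 18 ribosomal protein genes, whose products the assembly factors put together moved over a narrow range. None was called in any group, and their widest ranges were 0.45 and 0.48 for RPL38 in cdc14-3 and cdc15-2, 0.41 and 0.88 for RPL5 in cdc20 and wild type 37 C, and 0.37 and 0.48 for RPL29 in the cyclin mutant and wild type 30 C. Their mean was between 13.835 and 14.482 on every array, where intensities are near the top of the scale, and how far that limits their range was not tested. Of 15 regulators of the regulon, 3, 0, 8, 5, 4 and 2 were called in the same order of groups, in which 22.8%, 19%, 56.4%, 37.5%, 32.6% and 36% of all genes were. TOD6, a repressor that binds promoters of assembly genes, had the widest range of these in every group: 1.92 in cdc14-3, 1.29 in cdc15-2 (not called), 3.78 in cdc20, 2.39 in the cyclin mutant, 2.52 in wild type 37 C and 3.60 in wild type 30 C.

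Of 24 stress-induced genes 16, 22, 24, 24, 24 and 24 were called in the same order. The widest were ALD3 in cdc14-3 (2.82), HSP26 in cdc15-2 (4.45), CTT1 in cdc20 (6.74), SOL4 in the cyclin mutant (6.72) and wild type 30 C (7.5), and SSA4 in wild type 37 C (4.43). Early in the courses their mean was high where that of the assembly factors was low: it was 13.359 at 30 min and 9.232 at 94 min in wild type 30 C replicate 1, and 13.497 at 15 min and 11.207 at 90 min in wild type 37 C. Late in wild type 37 C both lists moved the same way, with a median change from 60 to 120 min to the arrays from 150 min of 0.27 for the assembly factors and 0.11 for the stress-induced genes. The part of the stress-induced genes was not tested.

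The 12 min array after release from alpha factor into 37 °C medium stood apart for the assembly factors in both 37 °C mutants. This dip was chosen after the values were seen and rests on 1 array a course, so it has no test. It was taken as the 12 min value minus the mean of the 0 and 24 min values. All 59 genes were below 0 in both courses. In cdc14-3 52 genes were lower by at least 1 (4.18% of all genes) and in cdc15-2 55 were (4.79%). The medians were -1.39 and -1.62, against 0.02 and 0.04 for all genes. Release from alpha factor and the move to 37 °C came together in both mutants and cannot be told apart here. Wild type 37 C was moved to 37 °C after elutriation, and the mean of its 59 genes was 8.526 at 15 min. That was its earliest array, so no dip could be taken there. The mean at 12 min was 9.202 in cdc14-3 and 9.33 in cdc15-2. The part of the temperature in the dip was not tested.

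NSR1 was at 12.00, 9.59 and 11.77 at 0, 12 and 24 min in cdc14-3 and at 12.56, 10.14 and 12.07 in cdc15-2. UTP22 had a shallower dip of -0.44 in cdc14-3 (10.17, 9.83 and 10.37) and of -0.70 in cdc15-2. RRP12, a subunit export factor named after its values were seen, dipped by -2.05 and -2.23. Thus even the mildest of these was lower at 12 min in both courses. Other lists moved less or the other way: the median was -1.16 and -1.27 for the other assembly factors, -0.62 and -0.75 for RNA polymerase I, -1.01 and -1.13 for RNA polymerase III, -0.10 and -0.14 for the ribosomal proteins, and 0.66 and 1.06 for the stress-induced genes, in cdc14-3 and cdc15-2. The TDH1 difference was 0.534 and 0.897 on these arrays, and its part was not tested.

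**Figure D3:**
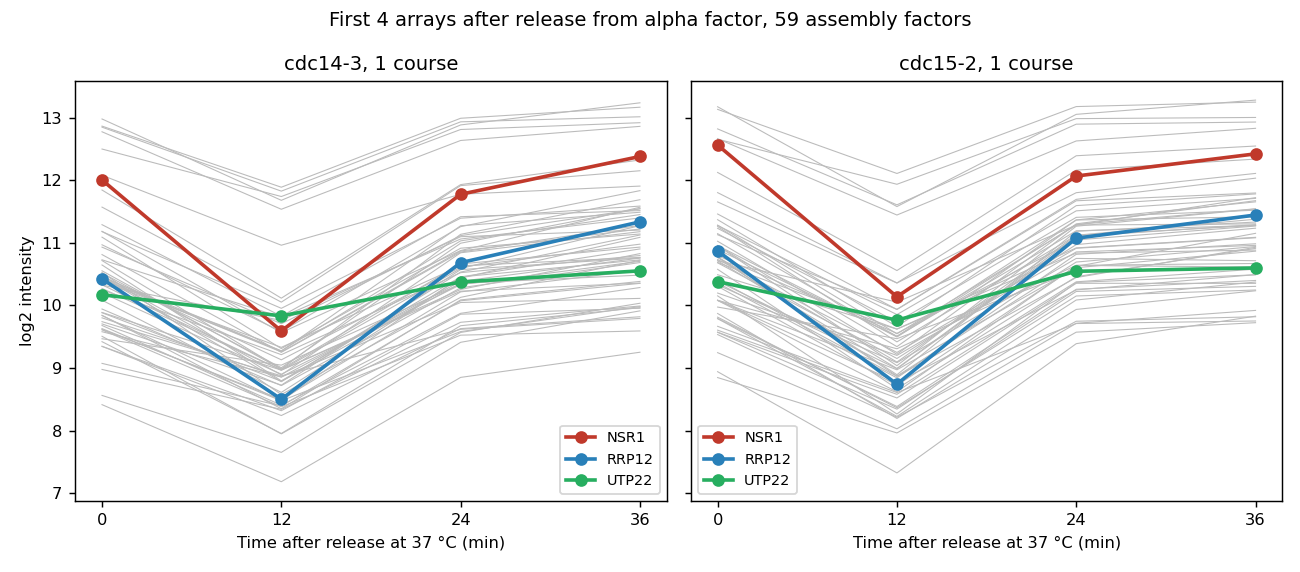
Log2 intensity of the 59 genes (y axis) on the 0, 12, 24 and 36 min arrays (x axis) of the cdc14-3 and cdc15-2 courses, 1 line per gene, with NSR1, RRP12 and UTP22 coloured and the others grey. All 59 lines are lower at 12 min than the mean of 0 and 24 min, and NSR1 reads 9.59 and 10.14 at 12 min.

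No gene was called for a difference between groups in the early climb. The climb was taken as the mean of the 60 to 120 min arrays minus the mean of the earliest 2 arrays of a course, and depends on when sampling began. Its median over the 59 genes was 1.54 in cdc14-3, 1.36 in cdc15-2, -0.06 and 1.13 in cdc20, 0.16 and 0.82 in the cyclin mutant, 2.00 in wild type 37 C, and 1.19 and 0.80 in wild type 30 C. The cdc20 course without a climb began at 40 min, and the other at 20 min. In limma on 1 value per course, no gene of 5449 passed an adjusted p of 0.05 in any of the 5 comparisons (0%). At an unadjusted p under 0.05, assembly factors numbered 1 for cdc14-3 and 2 for cdc15-2 against wild type 37 C, 0 for cdc20 and 0 for the cyclin mutant against wild type 30 C, and 13 for wild type 37 C against wild type 30 C. Of all genes 9.54%, 9.25%, 6.04%, 1.87% and 14.9% reached that level in these comparisons. The largest differences were -1.57 and -2.13 for NSR1 in the first 2 comparisons, -0.96 for KRR1 in cdc20, -0.77 for RPF2 in the cyclin mutant and 2.06 for NOG1 in wild type 37 C (adjusted p 0.316), and the smallest were of KRR1, MAK16, UTP9, NOP58 and KRR1.

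From 100 min on, the size of the movement was tested within each group, with no test between groups. With a spline of 3 degrees of freedom on the arrays from 100 min, 56 of 59 genes changed in cdc20 (27.3% of all genes) and 6 in the cyclin mutant (13%). None was called in cdc14-3 (1.05%), cdc15-2 (0.239%), wild type 37 C (1.93%) or wild type 30 C (5.03%), whose courses ended earlier than those of cdc20. In these 4 groups 53, 51, 44 and 51 genes had an unadjusted p under 0.05 in limma (50.7%, 38.5%, 49.3% and 63.5% of all genes), so the range threshold of 1 limits the calls. The median range of the 59 genes, with that of all genes after it, was 0.30 and 0.18 in cdc14-3, 0.30 and 0.20 in cdc15-2, 1.68 and 0.63 in cdc20, 0.74 and 0.44 in the cyclin mutant, 0.40 and 0.32 in wild type 37 C, and 0.24 and 0.26 in wild type 30 C.

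In cdc20, RRP1 had the widest late range at 2.53 (adjusted p 7.89e-17) and IMP4 spanned 2.34. NOP1 had the narrowest at 0.41. NOP1, NOP58 (0.95) and UTP22 (0.83) were the 3 genes not called. In the cyclin mutant NOG2, a GTPase of the large-subunit precursor, spanned 1.40 (adjusted p 1.02e-14) and NOG1 1.02 (adjusted p 6.74e-12). The other 4 called were RRP8, SPB4, UTP20 and UTP21, and NOP14 had the narrowest range at 0.29. The cdc20 count rested on the late arrays, since 11 genes were called without those after 240 min. In the cyclin mutant 3 were called without replicate 1 and 15 without replicate 2.

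For comparisons between groups each course gave 1 value per gene. The late level is the mean from 150 min to the end, and the drift is the late level minus the mean of 60 to 120 min. All 9 courses entered 1 limma fit with 3 residual degrees of freedom, so a group of 1 course borrows the spread of the groups with 2. Leaving out a course lowers these degrees of freedom for all genes. Shares of all genes under altered settings are not given in the comparisons below. Whether same-group courses came from separate cultures is not stated, and p-values then measure only the spread between these courses, which may be technical. The comparisons with wild type 37 C share that course, and those with wild type 30 C share those courses.

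At late times assembly factors were lower in cdc20 than in wild type 30 C. Of 59 genes, 40 were lower at an adjusted p under 0.05 (17.2% of all genes were lower) and none was higher (26.7%), with a median difference of -0.52 against 0.07 for all genes. By class, 2 of 4 box C/D, 0 of 3 box H/ACA, 5 of 6 UtpA, 3 of 4 UtpB, 9 of 13 other small-subunit and 21 of 29 large-subunit genes were lower. UTP20, a large small-subunit processome protein, had the largest difference. It was at 11.16 and 11.21 in the cdc20 courses and at 12.31 and 12.39 in wild type 30 C, a difference of -1.16 ± 0.10 (SE; 95% interval -1.40 to -0.92; adjusted p 0.000384). UTP22 was at 10.65 and 10.72 in cdc20, against 11.62 and 11.84 in wild type 30 C (-1.05 ± 0.12; adjusted p 0.000847). The courses did not overlap for either gene, but how many of all genes did not overlap was not counted.

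CBF5 showed the smallest difference, at 13.19 and 13.00 in cdc20 and 13.13 and 13.05 in wild type 30 C (0.00; 95% interval -0.30 to 0.31; adjusted p 0.987). NIP7 was at 12.76 and 12.53 in cdc20 and 12.71 and 12.73 in wild type 30 C (-0.08; 95% interval -0.35 to 0.19), and NOP1 at 13.68 and 13.66, against 13.81 and 13.80 (-0.13; 95% interval -0.39 to 0.12). For these 3 the interval of the difference includes 0. NOP2 was lower by 0.67 ± 0.12, at 11.83 and 11.60 in cdc20, against 12.38 and 12.37 in wild type 30 C, and NSR1 was at 12.76 and 12.73, against 13.26 and 13.30. The late arrays of cdc20 run to 300 and 360 min, against 254 and 262 min in wild type 30 C. With late arrays limited to 150 to 225 min 24 genes were called in either direction, without wild type 30 C replicate 1 22 and without its replicate 2 17. Leaving out a course also lowers the residual degrees of freedom for all genes, whose shares under these settings are not given here.

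In the cyclin mutant 11 of 59 genes were lower than in wild type 30 C (10.9% of all genes) and none was higher (13.8%), with a median of -0.27 against 0.00 for all genes. At an unadjusted p under 0.05 in limma there were 22 of 59 (37.3%), close to the 39.1% of all genes. NOG2 was at 11.15 and 11.45 in the cyclin mutant and at 12.22 and 12.15 in wild type 30 C (-0.89 ± 0.13; 95% interval -1.19 to -0.58; adjusted p 0.00367). CBF5 was at 12.34 and 12.61, against 13.13 and 13.05 (-0.62 ± 0.13; adjusted p 0.0142). UTP20 was at 11.90 and 11.80, against 12.31 and 12.39. None of these overlapped, but how many of all genes did not overlap either was not counted.

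NOG1, RLP24 and IMP4 were also lower, by 0.46, 0.50 and 0.52, and the other 5 were UTP21, RRP9, MAK16, RLP7 and SPB4. DRS1 differed least, at 11.38 and 11.33 in the cyclin mutant, against 11.32 and 11.41 in wild type 30 C (-0.01; 95% interval -0.41 to 0.39). With 1 course left out at a time, 1 gene was called without either wild type 30 C course, 3 without cyclin mutant replicate 1 and 19 without either cdc20 course. Stress-induced genes were higher in 18 of 24 cases here (13.8% of all genes). In cdc20 8 of 24 were higher (26.7% of all genes) and 2 lower (17.2%). The part of the stress-induced genes was not tested.

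In wild type 37 C 41 of 59 genes were lower than in wild type 30 C (23.1% of all genes) and none was higher (29.7%), with a median of -0.73 against 0.07 for all genes. UTP5 of UtpA was at 9.94 in wild type 37 C and at 11.64 and 11.63 in wild type 30 C (-1.70 ± 0.19; 95% interval -2.15 to -1.24; adjusted p 0.00055). NOP2 was at 11.03, against 12.38 and 12.37 (-1.35 ± 0.14), and DRS1 at 10.12, against 11.32 and 11.41 (-1.25 ± 0.21). NIP7 differed least, at 12.74 in wild type 37 C and 12.71 and 12.73 in wild type 30 C (0.02; 95% interval -0.31 to 0.34). Among the 24 stress-induced genes 19 were higher and 2 lower. Temperature, medium and study cannot be told apart here.

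In late level few differences from wild type 37 C were called in the mutants at 37 °C. In cdc14-3 none of 59 genes passed (11.4% of all genes did), 8 had an unadjusted p under 0.05 in limma (33.2% of all genes), and the median was -0.04 against -0.05 for all genes. RRP8, a methyltransferase of the large-subunit RNA, had the largest difference, at 9.81 in cdc14-3 and 10.98 in wild type 37 C (-1.17; 95% interval -1.94 to -0.40; adjusted p 0.0583), and NOP58 the smallest, at 13.08 in both. In cdc15-2 1 of 59 was higher (4.62% of all genes): UTP18 of UtpB, at 10.62 in cdc15-2 and 9.93 in wild type 37 C (0.69 ± 0.16; adjusted p 0.0413). RRP8 was again largest in size, at 10.27 in cdc15-2 and 10.98 in wild type 37 C (-0.71; adjusted p 0.206), and NOP16 smallest. The mutation and the way of synchronising cannot be told apart in these comparisons, and UTP18 was not called without either wild type 30 C course. Without either cdc20 course, 4 genes were called in cdc14-3 and 2 in cdc15-2.

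**Figure D4:**
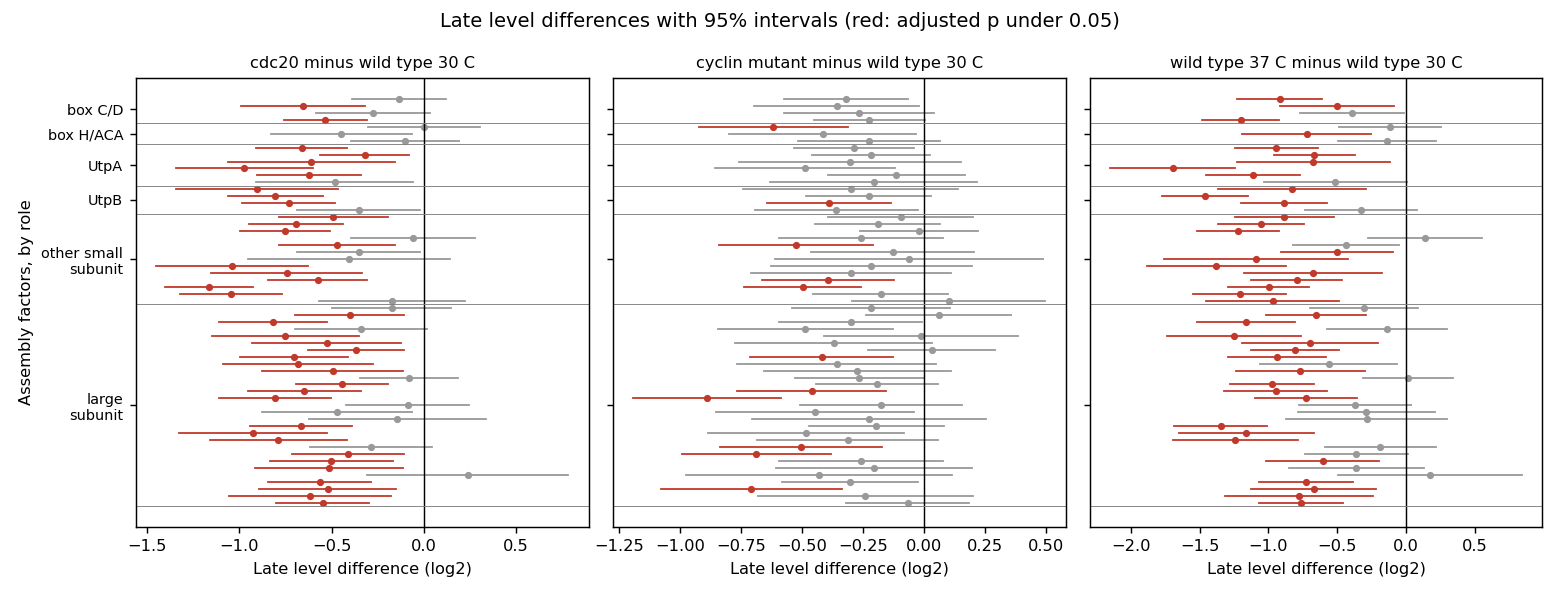
Difference in late level (mean log2 from 150 min on; x axis) for each of the 59 genes, grouped by role down the page, in 3 panels for cdc20 minus wild type 30 C, cyclin mutant minus wild type 30 C and wild type 37 C minus wild type 30 C, with 95% intervals and red for an adjusted p under 0.05. In the panels 40, 11 and 41 genes are red, all left of 0.

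More assembly factors passed the test in drift than in late level, except in wild type 37 C. The drift's median over the 59 genes was -0.25 in cdc14-3, -0.20 in cdc15-2, -0.85 and -1.0 in cdc20, -0.60 and -0.57 in the cyclin mutant, 0.27 in wild type 37 C, and -0.27 and -0.20 in wild type 30 C. In cdc20 56 of 59 genes fell more than in wild type 30 C (25.3% of all genes were lower by this measure), with a median difference of -0.65. SSF1, a large-subunit factor of the Brix family, drifted by -1.27 and -1.69 in cdc20 and by -0.37 and -0.09 in wild type 30 C (-1.25 ± 0.17; 95% interval -1.66 to -0.84; adjusted p 0.00146). DRS1 drifted by -1.03 and -1.26, against -0.20 and -0.10 (-0.99 ± 0.10; adjusted p 0.000563).

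NOP1 was the exception with the smallest difference, at 0.22 and -0.00 in cdc20 and -0.06 and -0.05 in wild type 30 C (0.16; 95% interval -0.08 to 0.41; adjusted p 0.226). NSR1 (-0.23; adjusted p 0.0655) and UTP10 (-0.22; adjusted p 0.067) were the other 2 not called. The stress-induced genes drifted by a median of 0.73 and 0.88 in cdc20, against 0.16 and 0.16 in wild type 30 C, and their part was not tested. With late arrays limited to 150 to 180 min 30 genes were called.

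In the cyclin mutant 35 of 59 genes fell more than in wild type 30 C (18% of all genes), with a median difference of -0.33. NOG2 drifted by -1.16 and -1.01 in the cyclin mutant and by -0.25 and -0.29 in wild type 30 C (-0.82 ± 0.09; adjusted p 0.00106). RPF2 drifted by -0.64 and -0.69, against -0.38 and -0.33 (-0.31 ± 0.10; adjusted p 0.0455). NOP14 differed least (0.00). All 24 stress-induced genes drifted upward relative to wild type 30 C, 13 of them past the threshold. The share of all genes called for a higher drift is not given here. The count was 17 without wild type 30 C replicate 1, 10 without its replicate 2 and 19 without cyclin mutant replicate 1, and 4 with late arrays of 150 to 180 min.

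In wild type 37 C 39 of 59 genes had a higher drift than in wild type 30 C (12.7% of all genes), with a median difference of 0.49. SPB1, an RNA methyltransferase of the large subunit, drifted by 0.52 in wild type 37 C and by -0.47 and -0.27 in wild type 30 C (0.89 ± 0.14; adjusted p 0.00925). RPF2 drifted by 0.46, against -0.38 and -0.33 (0.82 ± 0.12; adjusted p 0.00884). NOP1 differed least, at -0.06 in wild type 37 C and -0.06 and -0.05 in wild type 30 C. In wild type 37 C 12 of 59 genes drifted below 0. The count was 1 without wild type 30 C replicate 1, 6 without its replicate 2 and 17 with replicate numbers as a block.

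Against the upward drift of wild type 37 C, 10 of 59 genes had a lower drift in cdc14-3 (2.39% of all genes) and 4 in cdc15-2 (1.8%), with median differences of -0.49 and -0.45. RRP1 drifted by -0.51 in cdc14-3, against 0.30 in wild type 37 C (-0.82 ± 0.15; adjusted p 0.0372). NOP7 drifted by -0.36 in cdc15-2, against 0.57 in wild type 37 C (-0.93 ± 0.15; adjusted p 0.0325). The genes that differed least were UTP10 in cdc14-3 (0.02; 95% interval -0.27 to 0.31) and UTP21 in cdc15-2 (-0.01).

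RRP5 and NOP56 were among the 10 of cdc14-3, with UTP20, UTP9, NOP12, RPF2, IMP3, RRP8 and NOP7. The other 3 of cdc15-2 were NOP56, RPF2 and RRP1. At an unadjusted p under 0.05 there were 46 genes in cdc14-3 (26.5% of all genes) and 42 in cdc15-2 (27.5%). Without either wild type 30 C course both counts were 0. Without either cdc20 course they were 3 in cdc14-3 and 0 in cdc15-2, and without either cyclin mutant course 18 and 15. None of these courses is part of the 2 differences themselves. Leaving out a course lowers the residual degrees of freedom for all genes, whose shares under these settings are not given here. With replicate numbers as a block both were 0. The late windows differed, with last arrays at 240 min in cdc14-3, 180 min in cdc15-2 and 225 min in wild type 37 C. With late arrays limited to 150 to 180 min, 0 genes were called in cdc14-3 and 1 in cdc15-2. The median differences were then -0.32 and -0.40. Limited to 150 to 225 min, the counts were 10 in cdc14-3 and 15 in cdc15-2.

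**Figure D5:**
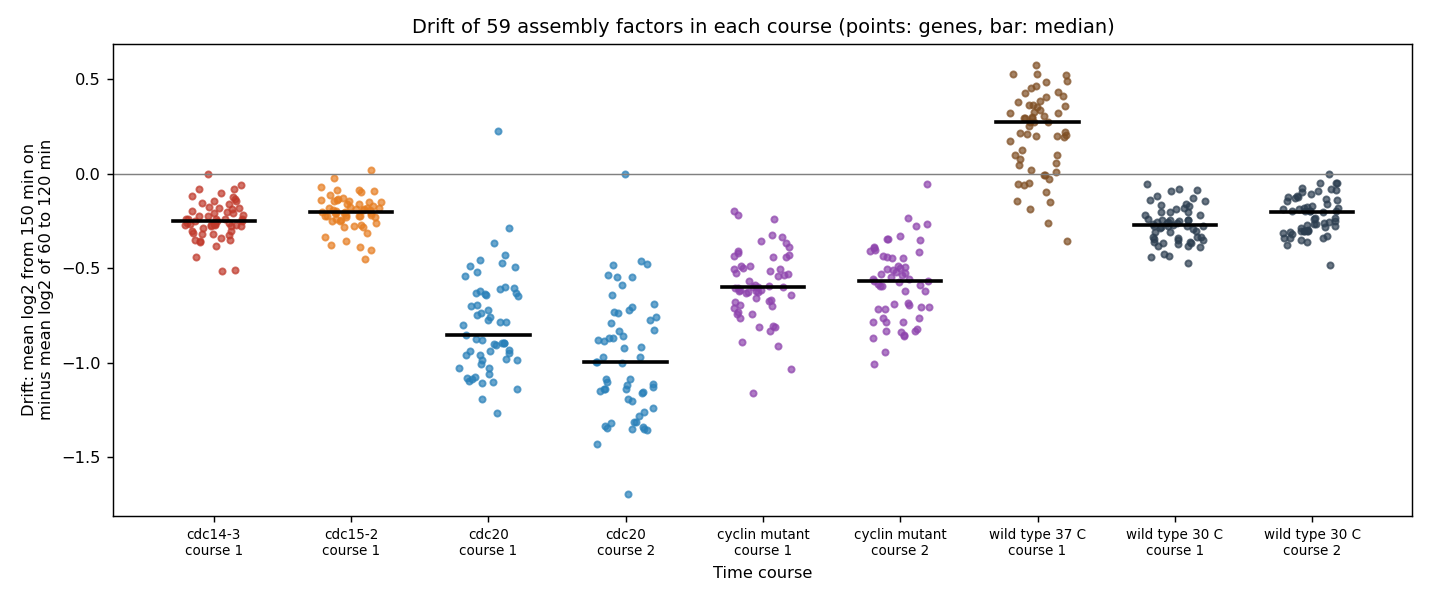
Drift (mean log2 from 150 min minus mean of 60 to 120 min; y axis) of the 59 genes in each of the 9 courses (x axis), 1 point per gene, with a bar at the median. The medians are lowest in the cdc20 courses, at -0.85 and -1.0, and above 0 in wild type 37 C alone, at 0.27.

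The 59 genes followed their common mean closely. The median Pearson correlation of a gene with the mean of the other 58 lay between 0.95 and 0.985 in the 9 courses, against 0.011 to 0.164 for the 5390 other genes. It is given as a description over the 14 to 21 arrays of a course, which share a culture and a time axis. Of the other genes 10.7% to 22.8% reached 0.8 as well. NOP1 had the lowest value of the 59 in cdc20, at -0.612 in replicate 1 and 0.483 in replicate 2, and UTP22 the lowest in both wild type 30 C courses, at 0.741 and 0.657.

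Over all 142 arrays, with each course centred, RPF2 was closest to the others at 0.991, and NOP1 (0.802) and UTP22 (0.835) were farthest. The 10 other genes most like the mean were NOC2 (0.985), RPA43 (0.983), UTP14 (0.982), TRM1 (0.982), MRT4 (0.982), RIX1 (0.981), PNO1 (0.98), NSA2 (0.98), ECM1 (0.98) and TSR2 (0.978). Of these, 7 were in the list of other assembly factors and RPA43 in that of RNA polymerase I, and TRM1, a tRNA methyltransferase, and ECM1, an export factor of the large subunit, were in none. The 59 genes are spread over the chromosomes other than IX, with 10 on IV, and DBP8 and NMD3 on VIII are the only direct neighbours.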

How the data were processed

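Each of the 142 samples was total RNA on 1 Affymetrix array. The deposited values are intensities per probe set on a linear scale, made by the authors with affy per the submitters' processing notes; which summary method and background step they used is not given in the sources used here. In the 14 columns of wild type 30 C replicate 2 the values were moved up 1 row, since their correlation with replicate 1 was 0.046 as deposited and 0.996 after the move. Of 5900 probe sets, 184 controls and 218 without a gene name were left out. The highest-mean probe set stood for each of 47 genes with several, which left 5449 genes, named through the platform annotation and RefSeq's R64 gene table (12 symbols updated). From these, log2 of the deposited intensity was taken with no pseudocount. No reads lie behind the values, so the number of arrays limits the precision.

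Change over time was tested with limma 3.58.1 in R 4.3.3, with a natural spline of 5 degrees of freedom (3 from 100 min) and an intercept per course. Groups were compared in limma on 1 value per course. Both were tested on simulated data. All adjusted p-values are Benjamini-Hochberg values over all genes. Figures and summaries used Python 3.11.15 with pandas 2.3.3, numpy 2.4.6 and matplotlib 3.10.9. Named genes were 18 members listed by role, the members with the widest and narrowest range in each group and the largest and smallest difference in each comparison, the 10 other genes most correlated with the members' mean, and the widest gene of each other list. The members and lists were chosen with earlier results of these data known. Alternatives covered the row move, pseudocount, normalization, probe sets, a filter on dim genes, windows, spline and courses left out. A promoter motif search that had been planned was not run, and no sequence was used here.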

Additional observations from a re-analysis of the deposited data

Results flagged for a closer look

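The late movement of the assembly factors, the mean from 150 min minus the mean of 60 to 120 min, differed between groups in a test of that difference itself. Of the 59 genes, 10 moved lower in cdc14-3 (2.39% of all genes) and 4 in cdc15-2 (1.8%) than in wild type 37 C. Both counts were 0 without either wild type 30 C course. With late arrays limited to 150 to 180 min, they were 0 in cdc14-3 and 1 in cdc15-2. In cdc20 56 moved lower than in wild type 30 C (25.3%), and in the cyclin mutant 35 did (18%). Without wild type 30 C replicate 2, 10 were called in either direction in the cyclin mutant. In wild type 37 C 39 moved higher than in wild type 30 C (12.7%), and 1 was called in either direction without wild type 30 C replicate 1. The shares of all genes under these altered settings are not given here. The TDH1 3′ minus 5′ difference in cdc20 replicate 2 was 3.415 at 100 min and 1.27 at 360 min. The same measure for ACT1 was 0.497 and 0.343 on those arrays. The part of RNA length in the downward movement there was not tested. No group had enough courses to look for a course far from the others.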

How the results depend on the processing

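Of 326 alternative values of 27 counts, 244 were within 1.5 times the count reported; the causes of the other 82 were not tested, beyond their use of fewer arrays, courses or genes. With wild type 30 C replicate 2 in the rows as deposited, which pairs different genes, 0 assembly factors were called for late level in cdc15-2, cdc20, the cyclin mutant and wild type 37 C, and for drift 0 in cdc14-3, cdc15-2 and wild type 37 C and 7 in the cyclin mutant. Change over time gave 31 genes in cdc14-3 and 8 in cdc15-2 without the 12 min array, 0 in both without the arrays before 30 min, and 31 in cdc15-2 with 4 degrees of freedom. From 100 min, a fitted range of at least 0.5 gave 3 genes in cdc14-3, 6 in cdc15-2, 51 in the cyclin mutant and 20 in wild type 37 C. The lower threshold can call more of all genes too, whose median range in the cyclin mutant was 0.44. Their share called at 0.5 is not given here. The cyclin mutant had 11 with 2 degrees of freedom and 3 to 15 with a course left out, and cdc20 had 11 without the arrays after 240 min.

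With a late window of 150 to 225 min, chosen after seeing the data as was that of 150 to 180 min, late-level counts were 0 in cdc15-2, 24 in cdc20 and 5 in the cyclin mutant, and drift counts 15 in cdc15-2 and 21 in the cyclin mutant. With 150 to 180 min, late-level counts were 0 in cdc15-2, 19 in cdc20 and 0 in the cyclin mutant, and drift counts 0 in cdc14-3, 1 in cdc15-2, 30 in cdc20, 4 in the cyclin mutant and 16 in wild type 37 C. A late window from 100 min gave 3 in the cyclin mutant for late level and 0, 0 and 19 in cdc14-3, cdc15-2 and wild type 37 C for drift, and a middle window of 48 to 100 min gave 0, 0 and 13. Quantile normalization, which moved array medians by up to 0.23 (log2), gave drift counts of 5 in cdc14-3 and 2 in cdc15-2. A pseudocount of 50 gave 11 in cdc15-2. The top 75% of genes gave 11 there and a late-level count of 1 in cdc14-3. Leaving out 1 course gave late-level counts of 0 to 4 in cdc14-3, 0 to 2 in cdc15-2, 17 to 48 in cdc20, 1 to 19 in the cyclin mutant and 30 to 47 in wild type 37 C, and drift counts of 0 to 18, 0 to 15, 46 to 56, 10 to 39 and 1 to 39; a lone course is then assumed to vary like the other groups.

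With replicate numbers as a block, late-level counts were 1 in cdc14-3, 1 in cdc15-2, 42 in cdc20, 10 in the cyclin mutant and 46 in wild type 37 C, and drift counts 0, 0, 55, 30 and 17. The labels do not say that the numbers pair the courses, and not every pair's replicate 1 minus replicate 2 deviations correlated over genes by more than 0.1. Between cdc20 and the cyclin mutant, cdc20 and wild type 30 C, and the cyclin mutant and wild type 30 C, the correlations were 0.0711, 0.0897 and 0.0333 for late level, 0.676, -0.171 and -0.206 for the early climb, and 0.0145, 0.00466 and 0.12 for drift. With no replicate block, change over time gave 59 in cdc20, 52 in the cyclin mutant and 55 in wild type 30 C.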

Other observations

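On the 240 min array of cdc20 replicate 1, UTP8 of the UtpA complex read 12.286, against 10.431 at 220 min and 10.41 at 260 min. This value was noticed after the data were seen and rests on 1 array. The genes that ran most against the mean of the assembly factors over the 142 arrays included the uncharacterised YDL199C, with a correlation of -0.921.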
